A study of Homo sapiens with 6 samples.

Results

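The genes described here are the human J-domain proteins that carry a DNAJA, DNAJB or DNAJC symbol. They were taken as every row of the gene table whose symbol was one of these 3 prefixes followed by a number, which gave 43 of 61806 rows: 4 DNAJA, 13 DNAJB and 26 DNAJC genes. The libraries came from HCT116, an established human colorectal carcinoma line whose genotype is labelled wildtype. In 3 libraries, called si-NC, the cells had received a control short interfering RNA (siRNA), and in the other 3, called si-STRIP2, an siRNA aimed at STRIP2, the gene of a scaffold protein in the STRIPAK signalling complex. The siRNA sequences, their dose and the time after transfection were not given in the sources used here. Nothing in the labels says that libraries sharing a group were grown as separate cultures. The p-values below therefore weigh the group difference against the spread between these libraries, which may be technical.

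J-domain proteins are the partners that set HSP70 chaperones to work. The J domain, with a conserved His-Pro-Asp motif, stimulates ATP hydrolysis by HSP70, which then closes on its client, and other parts of the protein choose the client or the place in the cell. DNAJA proteins carry a glycine and phenylalanine rich stretch and a zinc finger beside the J domain, DNAJB proteins carry the rich stretch without the zinc finger, and DNAJC proteins share little beyond the J domain itself and hold the most specialised tasks, from vesicle uncoating to protein import into mitochondria.

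Each library held between 17184963 and 21721218 counts, of which the J-domain genes took 0.253% to 0.263%. Levels are given as FPKM, counted fragments scaled by the exonic size of the gene and by the library total. STRIP2 itself had 3.19, 3.77 and 3.81 FPKM in si-NC 1 to 3 and 2.71, 2.53 and 2.58 in si-STRIP2 1 to 3, with no overlap and a log2 fold change of -0.46 (SE 0.083, edgeR adjusted p = 1.62e-05). Of 9 colorectal epithelial markers, 6 had a mean of at least 1 FPKM, while CDX1 was at 0 and VIL1 and LGALS4 were close to 0. The summed leukocyte markers stayed at or below 0.23 FPKM and the endothelial ones at or below 0.10. The fibroblast markers summed to 2.17 to 2.57 FPKM in si-NC and 1.92 to 2.14 in si-STRIP2, nearly all of it COL1A1. COL1A2 had 0 counts in every library, and DCN had only 1 count, in si-NC 2, which rounds to 0 FPKM.

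Most of the expressed J-domain genes differed between the groups, with calls in both directions. Of the 43 genes, 39 passed the filter on low counts and were tested, and 27 of these (69.2%) were called at an adjusted p under 0.05 by edgeR, beside 54.8% of the 15687 genes tested. Of the 39, 10 (25.6%) were higher in si-STRIP2, beside 27.8% of all tested genes, and 17 (43.6%) were lower, beside 27.0%. For 30 of the 39 (76.9%), every FPKM value of 1 group lay beyond every value of the other, beside 58.6% of all tested genes. Changes of at least 1.5-fold were few: DNAJA1 and DNAJA4 rose by that much, where 6.35% of all tested genes did, and DNAJB9 and DNAJC15 fell by that much, where 8.10% did. The median log2 fold change was -0.13, beside 0.014 over all genes tested. When only genes with at least 1 FPKM in 3 libraries were tested, 28 of 39 members were called, beside 7488 of 12329 genes. In RNA from a whole culture, fewer cells of a kind and less RNA per cell cannot be told apart.

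**Figure D1:**
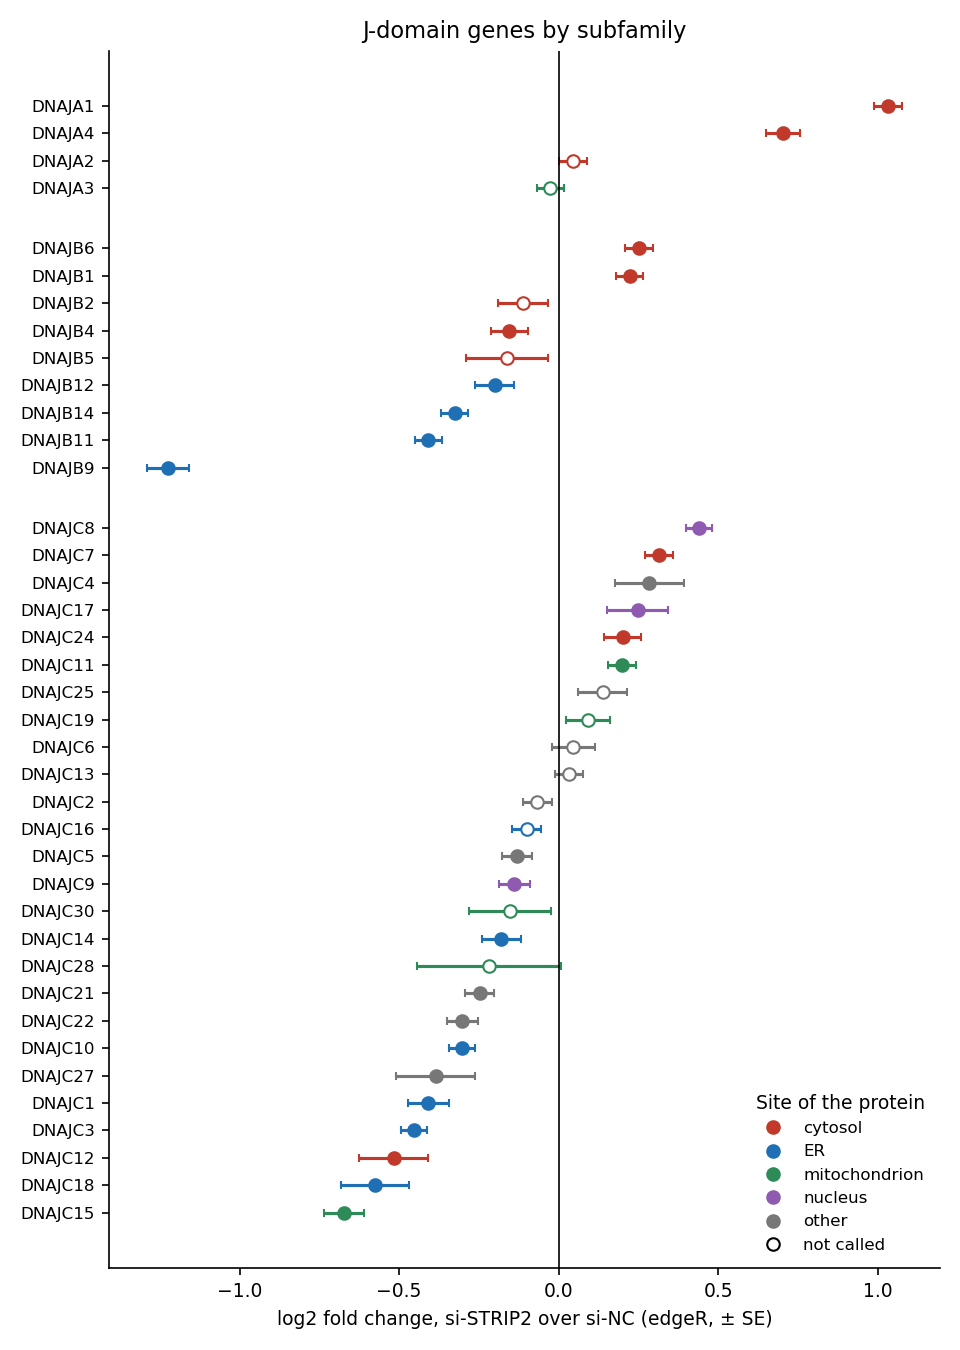
Log2 fold change of si-STRIP2 over si-NC (x axis) for each tested J-domain gene (y axis), grouped by subfamily, with bars of the standard error, colour for the place of the protein in the cell and filled points for genes called by edgeR. DNAJA1 at 1.03 and DNAJB9 at -1.22 are the ends of the range.

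The 4 genes that were not tested were all DNAJB genes. DNAJB3 had 0 counts in every library, which allows up to 3 counts in each. DNAJB8 had at most 1 count per library, DNAJB13 at most 3, and DNAJB7 had 3, 4 and 6 counts in si-NC and 11, 6 and 8 in si-STRIP2. XPNPEP3 overlaps DNAJB7 on the opposite strand with 11568% as many counts and a log2 fold change of 0.70 (edgeR adjusted p = 4.44e-12), and whether its reads entered the DNAJB7 counts was not tested. DNAJB3, DNAJB7 and DNAJB8 are known from testis, and DNAJB13 is a radial spoke protein of motile cilia and sperm tails.

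The short stretches below are shown because the genes they precede include the DNAJA and cytosolic DNAJB genes that rose. They hold at least 2 adjoining units of the kind that make up the sites of heat shock factors. The 250 bases before each RefSeq start (GRCh38.p14) were searched on both strands for 2 adjoining heat shock units, GAANNTTC or TTCNNGAA. Windows were found for 39 of the 43 genes, and 7 of them (17.9%) held a match, beside 14.0% of the 27305 gene symbols with a window. By call, 4 of 9 genes that rose held one, 2 of 15 that fell, 0 of 12 that were not called and 1 of 3 that were not tested. The search was chosen after the calls were seen, no such split was made over all genes, and the difference was not tested. DNAJB7, the match among the untested genes, is not shown. The matched letters are in capitals, and each stretch is written 5′ to 3′ on the strand of its gene. The stretches lie at chr9:33025064-33025093 on the plus strand for DNAJA1, chr15:78264451-78264537 plus for DNAJA4, chr19:14518426-14518455 minus for DNAJB1, chr7:157336853-157336905 plus for DNAJB6, chr1:78004830-78004859 plus for DNAJB4 and chr13:43023386-43023415 plus for DNAJC15.
DNAJA1: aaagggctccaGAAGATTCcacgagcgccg
DNAJA4: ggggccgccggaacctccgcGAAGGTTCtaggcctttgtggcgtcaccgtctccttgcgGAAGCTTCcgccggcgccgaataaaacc
DNAJB1: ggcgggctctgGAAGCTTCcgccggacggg
DNAJB6: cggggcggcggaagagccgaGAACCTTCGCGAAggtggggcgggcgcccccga
DNAJB4: agcatttgctgTTCTAGAAagtacagagac
DNAJC15: tgtgagtgtgaTTCAAGAAcgtcccagtgc
DNAJA1, DNAJA4, DNAJB1 and DNAJB6 rose, and DNAJB4 and DNAJC15 fell. In the GENCODE annotation, the DNAJA1 stretch lies in an untranslated exon of APTX, and those of DNAJB4 and DNAJC15 lie in untranslated exons of other transcripts of the same gene. The stretches of DNAJA4, DNAJB1 and DNAJB6, as printed, lie in no exon but within the span of longer transcripts of the gene. DNAJB1 had 2 matches, of which 1 is shown, because the longer stretch that holds both met an untranslated exon. DNAJB6 alone among the members held 3 adjoining units, GAANNTTCNNGAA or TTCNNGAANNTTC, a match found for 0.557% of all symbols with a window. Of 2 motifs tied to the unfolded protein response of the endoplasmic reticulum (ER), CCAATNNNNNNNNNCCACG was found before 0 members and 0.0916% of all symbols. The other, TGACGTG or CACGTCA, was found before DNAJC10 and DNAJC25 and before 2.05% of all symbols. A match is a run of letters and not a measured binding site, and a window without one says only that these letters are not in those bases.

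The DNAJA genes, the widely expressed folding partners of HSP70, split into 2 that rose and 2 that were not called, with 0 lower, where 27.8% of all tested genes rose and 27.0% fell. DNAJA1 (ENSG00000086061, chr9:33025273-33039907, plus strand), a general cytosolic co-chaperone, had 39.52, 42.22 and 37.03 FPKM in si-NC and 79.22, 80.18 and 84.00 in si-STRIP2. Every si-STRIP2 library lay far above every si-NC library. The mean went from 39.6 ± 2.60 to 81.1 ± 2.53 FPKM (SD, n = 3 in each group), a log2 fold change of 1.03 (SE 0.045, 2.04-fold, edgeR adjusted p = 1.56e-19), which was the largest rise of any member. Its 6 pseudogenes in the table together held 0.00571% as many counts as the gene.

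DNAJA4 (ENSG00000140403, chr15:78264086-78282196, plus strand), a heat-inducible relative of DNAJA1, had 6.82, 7.34 and 7.80 FPKM in si-NC and 12.73, 11.90 and 11.11 in si-STRIP2. The groups were again apart, and the log2 fold change was 0.70 (SE 0.053, 1.63-fold, edgeR adjusted p = 2.00e-13). WDR61 overlaps it on the opposite strand, held 90.2% as many counts, and had a log2 fold change of 0.27 (edgeR adjusted p = 1.72e-05). Whether reads of overlapping genes entered each other's counts was not tested, here and for the pairs below, because the strand setting of the counting was not given in the sources used here.

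DNAJA2 (ENSG00000069345, chr16:46955362-46973674, minus strand), which shares the cytosol and much of its work with DNAJA1, had 25.34, 25.90 and 24.51 FPKM in si-NC and 26.76, 24.56 and 27.00 in si-STRIP2. The groups overlapped, and the log2 fold change of 0.045 (SE 0.043) was not called (edgeR adjusted p = 0.393). DNAJA3, the co-chaperone of mitochondrial HSP70 in the matrix, was not called either, with a log2 fold change of -0.026 (edgeR adjusted p = 0.616). The ratio of DNAJA1 to DNAJA2 levels in FPKM, a pair chosen after its values were seen, was 1.56, 1.63 and 1.51 in si-NC and 2.96, 3.26 and 3.11 in si-STRIP2. The summed level of the 4 DNAJA genes went from 87.8 ± 3.46 to 134 ± 2.69 FPKM, a ratio of 1.53, and without DNAJA1 the ratio was 1.11.

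**Figure D2:**
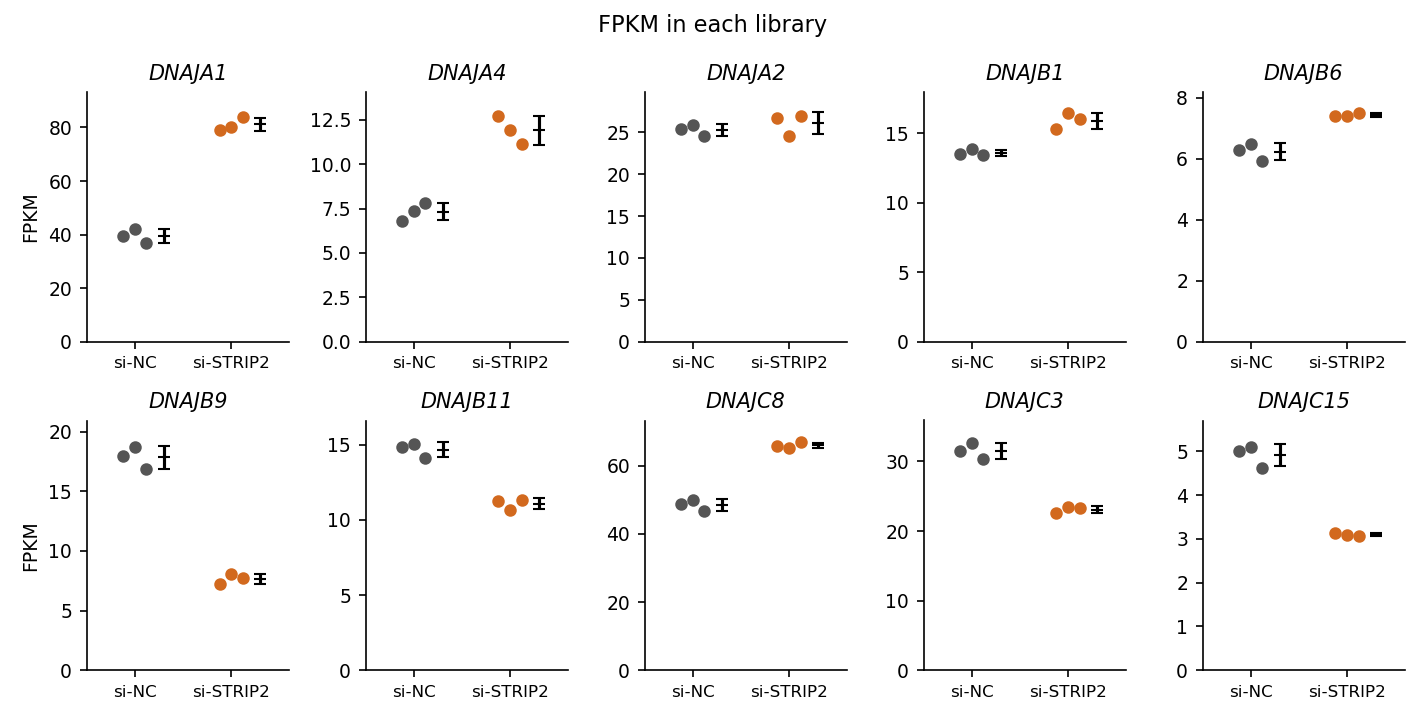
FPKM in each library (points, 3 per group) for the J-domain genes described in full, with the group mean ± SD beside them. DNAJA1, DNAJA4, DNAJC8, DNAJB1 and DNAJB6 lie higher in every si-STRIP2 library than in any si-NC library, DNAJB9, DNAJB11, DNAJC3 and DNAJC15 lie lower, and DNAJA2 overlaps.

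Among the tested DNAJB genes, those of the ER shared a direction and the rest were mixed, with a median log2 fold change of -0.11. All 4 members of the ER (DNAJB9, DNAJB11, DNAJB12 and DNAJB14) fell, whereas of the 5 tested members outside it DNAJB1 and DNAJB6 rose, DNAJB4 fell and DNAJB2 and DNAJB5 were not called. In all, 2 of 9 tested DNAJB genes (22.2%) rose and 5 (55.6%) fell, beside 27.8% and 27.0% of all tested genes. DNAJB9 (ENSG00000128590, chr7:108569867-108574850, plus strand), a stress-induced partner of the ER HSP70 named BiP, had 17.98, 18.73 and 16.83 FPKM in si-NC and 7.24, 8.07 and 7.69 in si-STRIP2. All 3 si-STRIP2 values were under the lowest si-NC value. The mean went from 17.8 ± 0.957 to 7.67 ± 0.415 FPKM (SD, n = 3 in each group), a log2 fold change of -1.22 (SE 0.066, 2.34-fold lower, edgeR adjusted p = 4.43e-17), the largest fall of any member.

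DNAJB11 (ENSG00000090520, chr3:186567403-186585800, plus strand), which brings unfolded secretory proteins to BiP, had 14.84, 15.05 and 14.11 FPKM in si-NC and 11.26, 10.64 and 11.32 in si-STRIP2. These values did not overlap either, with a log2 fold change of -0.41 (SE 0.043, edgeR adjusted p = 5.17e-10). TBCCD1, on the opposite strand with 20.4% as many counts, had a log2 fold change of 0.57 (edgeR adjusted p = 7.77e-08). DNAJB12 and DNAJB14, which sit in the ER membrane with the J domain facing the cytosol, had log2 fold changes of -0.20 and -0.33 (edgeR adjusted p = 0.00595 and 8.08e-08). Because DNAJB9 fell further than DNAJB11, the ratio of DNAJB11 to DNAJB9 in FPKM went from 0.822 ± 0.018 to 1.45 ± 0.120 (SD, n = 3), a pair chosen after its values were seen.

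DNAJB1 (ENSG00000132002, chr19:14514769-14560391, minus strand), the heat-inducible HSP40 that works with HSP70 in refolding and disaggregation, had 13.50, 13.83 and 13.43 FPKM in si-NC and 15.28, 16.42 and 16.00 in si-STRIP2. Its groups did not overlap, yet the rise was small, at a log2 fold change of 0.22 (SE 0.042, 1.17-fold, edgeR adjusted p = 3.21e-05). TECR, on the opposite strand with 63.2% as many counts, had a log2 fold change of 0.10 (edgeR adjusted p = 0.0448). DNAJB6 (ENSG00000105993, chr7:157335381-157417439, plus strand), a suppressor of protein aggregation, had 6.28, 6.49 and 5.94 FPKM in si-NC and 7.40, 7.42 and 7.51 in si-STRIP2, a log2 fold change of 0.25 (SE 0.043, edgeR adjusted p = 7.00e-06). Its 8 pseudogenes held 2.26% as many counts.

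The other 3 tested DNAJB genes had smaller differences. DNAJB4, a close relative of DNAJB1, had a log2 fold change of -0.15 (edgeR adjusted p = 0.0214), and it lost its call under DESeq2 (adjusted p = 0.0547), with no filter on low counts (edgeR adjusted p = 0.0534) and without si-STRIP2 1 (edgeR adjusted p = 0.105). DNAJB5, also close to DNAJB1, had -0.16 and DNAJB2, a neuronal co-chaperone with ubiquitin-interacting motifs, had -0.11, neither of them called (edgeR adjusted p = 0.292 and 0.238). Over the subfamily the summed level went from 82.4 ± 2.19 to 68.3 ± 0.906 FPKM, a ratio of 0.829. Its ER members went from 47.6 to 31.2 FPKM, a ratio of 0.657, while the rest went from 34.8 to 37.0, a ratio of 1.06.

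Among the 26 DNAJC genes 6 (23.1%) rose, 12 (46.2%) fell and 8 were not called, where 27.8% of all tested genes rose and 27.0% fell. The median log2 fold change was -0.13. The most abundant of them, DNAJC8 (ENSG00000126698, chr1:28199456-28233029, minus strand), a spliceosome-associated protein, had 48.78, 50.08 and 46.72 FPKM in si-NC and 65.81, 65.33 and 66.86 in si-STRIP2. The groups were well apart, with a log2 fold change of 0.44 (SE 0.040, edgeR adjusted p = 2.97e-11), the largest rise in the subfamily. DNAJC3 (ENSG00000102580, chr13:95677139-95794988, plus strand), a BiP co-chaperone also known as an inhibitor of eIF2alpha kinases, had 31.56, 32.72 and 30.37 FPKM in si-NC and 22.55, 23.44 and 23.25 in si-STRIP2. All si-STRIP2 values were lower, and the log2 fold change was -0.45 (SE 0.041, edgeR adjusted p = 2.30e-11).

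DNAJC15 (ENSG00000120675, chr13:43023203-43114213, plus strand), a protein of the mitochondrial inner membrane import motor, fell most within the subfamily. It had 5.02, 5.11 and 4.62 FPKM in si-NC and 3.14, 3.09 and 3.06 in si-STRIP2, with the si-STRIP2 libraries close together and all under si-NC. The mean went from 4.92 ± 0.261 to 3.10 ± 0.0404 FPKM (SD, n = 3 in each group), a log2 fold change of -0.67 (SE 0.063, 1.59-fold lower, edgeR adjusted p = 4.15e-11). DNAJC19, its counterpart at the same motor, was not called, at 0.091 (edgeR adjusted p = 0.272). The ratio of DNAJC15 to DNAJC19 in FPKM went from 0.958 ± 0.0116 to 0.565 ± 0.0232 (SD, n = 3), again a pair chosen after its values were seen.

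Of the other 5 DNAJC genes of the ER, 4 fell. DNAJC1, an ER membrane partner of BiP, and DNAJC10, a disulfide reductase of the ER lumen, had log2 fold changes of -0.41 and -0.30 (edgeR adjusted p = 1.68e-06 and 7.90e-08). DNAJC18, an ER membrane protein, had -0.58 (edgeR adjusted p = 2.07e-05), and DNAJC14, another, had -0.18 (edgeR adjusted p = 0.0117). TMEM198B, on the opposite strand of DNAJC14, held 30.9% as many counts and had a log2 fold change of -0.28, in the direction of the member. The 3 genes that overlap DNAJC14 together held 65.0% as many counts. The call of DNAJC14 was lost without si-NC 1 (edgeR adjusted p = 0.137) or without si-STRIP2 1 (edgeR adjusted p = 0.0895). DNAJC16 was the exception among the 10 ER members: its groups did not overlap, but its log2 fold change of -0.10 was not called (edgeR adjusted p = 0.0629).

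Of the cytosolic and nuclear DNAJC genes, DNAJC7, a co-chaperone of HSP70 and HSP90 with TPR repeats, rose by 0.31 on the log2 scale (edgeR adjusted p = 2.37e-07), and DNAJC24, an enzyme partner in diphthamide synthesis, rose by 0.20 (edgeR adjusted p = 0.00430). DNAJC12, which attends the aromatic amino acid hydroxylases, fell by 0.52 (edgeR adjusted p = 0.000147). DNAJC17, a spliceosome-associated protein, had 0.25 (edgeR adjusted p = 0.0300), and DNAJC9, a histone chaperone, had -0.14 (edgeR adjusted p = 0.0183). DNAJC7, DNAJC9, DNAJC24 and DNAJC17 are overlapped by expressed genes on the opposite strand. CNP, over DNAJC7, held 45.2% as many counts and had a log2 fold change of 0.40, and FAM149B1, over DNAJC9, held 59.6% and had -0.19, both in the direction of the member and larger. The 2 genes that overlap DNAJC7 together held 71.7%. IMMP1L, over DNAJC24, held 41.2% and had -0.39, against the direction of the member. ZFYVE19, over DNAJC17, held 151% and had 0.019, which was not called (edgeR adjusted p = 0.869). DNAJC4, which is overlapped on its own strand by NUDT22 with 86.0% as many counts and a log2 fold change of -0.0021, rose by 0.28 (edgeR adjusted p = 0.0258). DNAJC4 lost its call under DESeq2 (adjusted p = 0.0975), as did DNAJC17 (0.105). Further calls were lost when 1 library was left out in turn: that of DNAJC24 without si-STRIP2 1 (edgeR adjusted p = 0.0507), that of DNAJC9 without si-NC 1, si-NC 2 or si-STRIP2 1 (0.0691, 0.0561 and 0.0990), and that of DNAJC4 without si-NC 1, si-NC 2 or si-STRIP2 2 (0.112, 0.0629 and 0.0872). DNAJC17 lost its call without si-NC 1, si-NC 2, si-STRIP2 1 or si-STRIP2 2, with edgeR adjusted p between 0.0559 and 0.183.

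Elsewhere in the cell calls went both ways. DNAJC11, linked to mitochondrial cristae, rose by 0.20 (edgeR adjusted p = 0.000325), and THAP3, on the opposite strand with 9.84% as many counts, had 0.46, in the same direction. DNAJC21, which takes part in maturation of the large ribosomal subunit, fell by 0.25 (edgeR adjusted p = 2.06e-05), while DNAJC2, of the ribosome-associated complex, had -0.066 (edgeR adjusted p = 0.229) and is overlapped by PSMC2, with 185% as many counts and a log2 fold change of 0.15. The 3 genes that overlap DNAJC2 together held 344% as many counts. DNAJC5, the cysteine string protein of secretory vesicles, fell by 0.13 (edgeR adjusted p = 0.0157), a call lost without si-NC 1 (0.0638) or without si-STRIP2 3 (0.0830), and DNAJC27, a Rab-like GTPase with a J domain, fell by 0.39 (edgeR adjusted p = 0.00824), with 16.2% as many counts in its antisense gene DNAJC27-AS1, whose log2 fold change was 0.067. DNAJC6, the auxilin of clathrin uncoating, and DNAJC13, of endosomal trafficking, were not called, at 0.046 and 0.033 (edgeR adjusted p = 0.587 and 0.541). DNAJC22 fell by 0.30 (edgeR adjusted p = 1.83e-06), and DNAJC25 had 0.14 with no overlap of the groups and no call (edgeR adjusted p = 0.132). DNAJC28 and DNAJC30 had -0.22 and -0.15, neither called (edgeR adjusted p = 0.424 and 0.320), and BUD23, which overlaps DNAJC30 with 1507% as many counts, had 0.30. The summed DNAJC level was 257.67, 259.67 and 247.58 FPKM in si-NC and 248.51, 251.36 and 250.71 in si-STRIP2, so the groups overlapped.

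Set out by place in the cell, calls among the ER members were all downward and those among the cytosolic members mostly upward. Of the 10 ER members, 9 (90.0%) fell, 0 rose and 1 was not called, with a median log2 fold change of -0.37, where 27.0% of all tested genes fell and 27.8% rose. All 5 partners of BiP among them (DNAJB9, DNAJB11, DNAJC1, DNAJC3 and DNAJC10) fell. Of 11 tested cytosolic members 6 (54.5%) rose, 2 (18.2%) fell and 3 were not called, with a median of 0.20, beside the same 27.8% and 27.0%. Over the 29 tested members outside the ER, 10 (34.5%) rose and 8 (27.6%) fell, close to the 27.8% and 27.0% of all tested genes, and the median was 0.033. These places come from general knowledge of the proteins. When ER membership was read from the deposited Gene Ontology terms instead, a grouping added after the data were seen, it held 12 members, of which 9 fell and 1, DNAJA1, rose. The difference between subfamilies or places was not tested, since membership was chosen with results known.

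**Figure D3:**
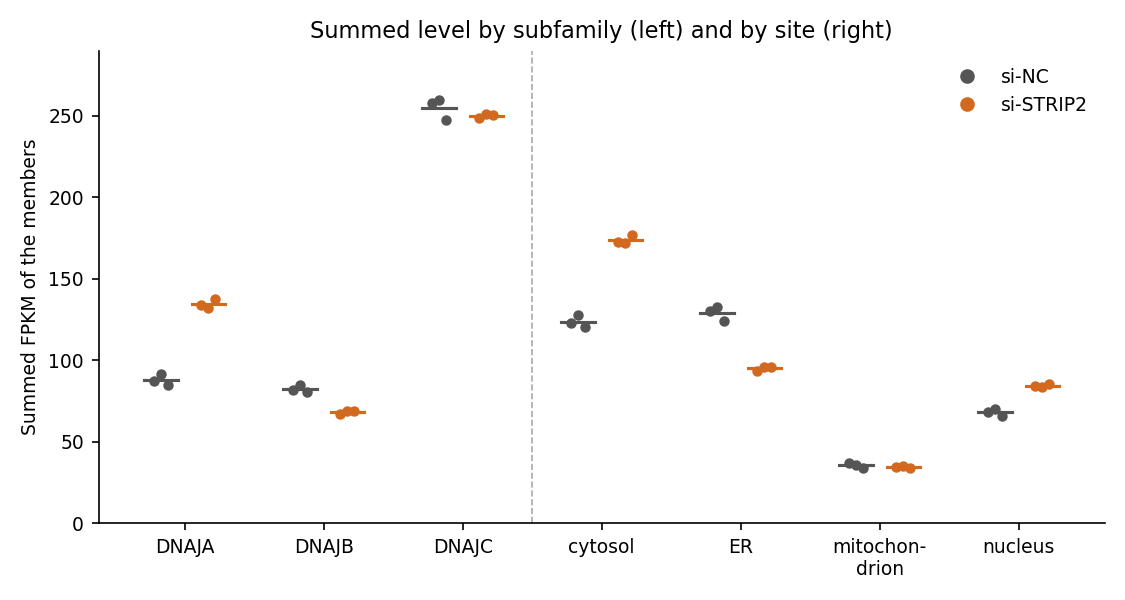
Summed FPKM in each library (points, 3 per group, line at the mean) for the J-domain genes of each subfamily and of the main places in the cell. The DNAJA and cytosolic sums are higher in every si-STRIP2 library, the DNAJB and ER sums are lower, and the DNAJC sums overlap.

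The summed ER level was 130.35, 132.76 and 123.95 FPKM in si-NC and 93.71, 96.11 and 96.07 in si-STRIP2, a ratio of 0.739. Without DNAJB9 the ratio was 0.788. The cytosolic sum was 122.57, 127.66 and 120.31 FPKM in si-NC and 172.88, 171.72 and 176.72 in si-STRIP2, a ratio of 1.41, and without DNAJA1 it was 1.10. As a share of the summed FPKM of all members, the ER genes went from 30.3% to 21.0% and the cytosolic genes from 29.1% to 38.4%. The cytosolic genes other than DNAJA1 went from 19.7% to 20.5% of the same sum. The sum over all members went from 425 ± 11.7 to 453 ± 3.84 FPKM, a ratio of 1.07. DNAJA1 alone went from 39.6 to 81.1 FPKM, a larger rise than that of the whole sum.

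Of 9 tested genes of the HSP70 chaperones that these proteins serve, 4 (44.4%) rose and 4 (44.4%) fell, where 27.8% of all tested genes rose and 27.0% fell. HSPA8, the constitutive cytosolic HSP70, had 63.58, 64.30 and 59.65 FPKM in si-NC and 185.12, 200.19 and 198.83 in si-STRIP2, a log2 fold change of 1.64 (edgeR adjusted p = 3.40e-24). HSPA5, which encodes BiP, had 414.18, 429.99 and 410.47 FPKM in si-NC and 231.06, 236.39 and 226.73 in si-STRIP2, a log2 fold change of -0.86 (edgeR adjusted p = 7.30e-17). Neither gene's groups overlapped. HSPA1B, a heat-inducible cytosolic HSP70, rose by 1.06 on the log2 scale (edgeR adjusted p = 3.22e-14), though its level is uncertain because HSPA1A is a near-identical copy.

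Among the co-factors of the cycle, 3 of 5 cochaperones rose and 0 fell, beside 27.8% and 27.0% of all tested genes, led by CHORDC1 at 0.89 and STIP1, the HSP70 and HSP90 organising protein, at 0.80 (edgeR adjusted p = 5.92e-18 and 5.24e-17). Of 13 nucleotide exchange factors, which reset HSP70 after each round, 6 (46.2%) rose and 4 (30.8%) fell, beside the same 27.8% and 27.0%, and none by 1.5-fold. The ER factors HYOU1 and SIL1 had log2 fold changes of -0.58 and -0.49 (edgeR adjusted p = 2.40e-14 and 6.24e-08), and the cytosolic factor HSPH1 had 0.55 (edgeR adjusted p = 8.56e-14), 3 genes chosen after their values were seen. In the same list BAG5 and GRPEL2 also fell, with -0.15 and -0.21 (edgeR adjusted p = 0.00457 and 2.44e-05). HSPA4L, BAG1 and BAG2 were not called, and these genes too were named with their values known. Of 6 tested J-domain genes under other symbols, 1 (16.7%) rose and 2 (33.3%) fell, beside 27.8% and 27.0% of all tested genes. SEC63, the J protein of the ER translocon and also chosen after its value was seen, fell by 0.18 (edgeR adjusted p = 0.000363). HSCB, the other that fell, had -0.24 (edgeR adjusted p = 0.0415) with groups that overlapped, and was named with its value known too.

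**Figure D4:**
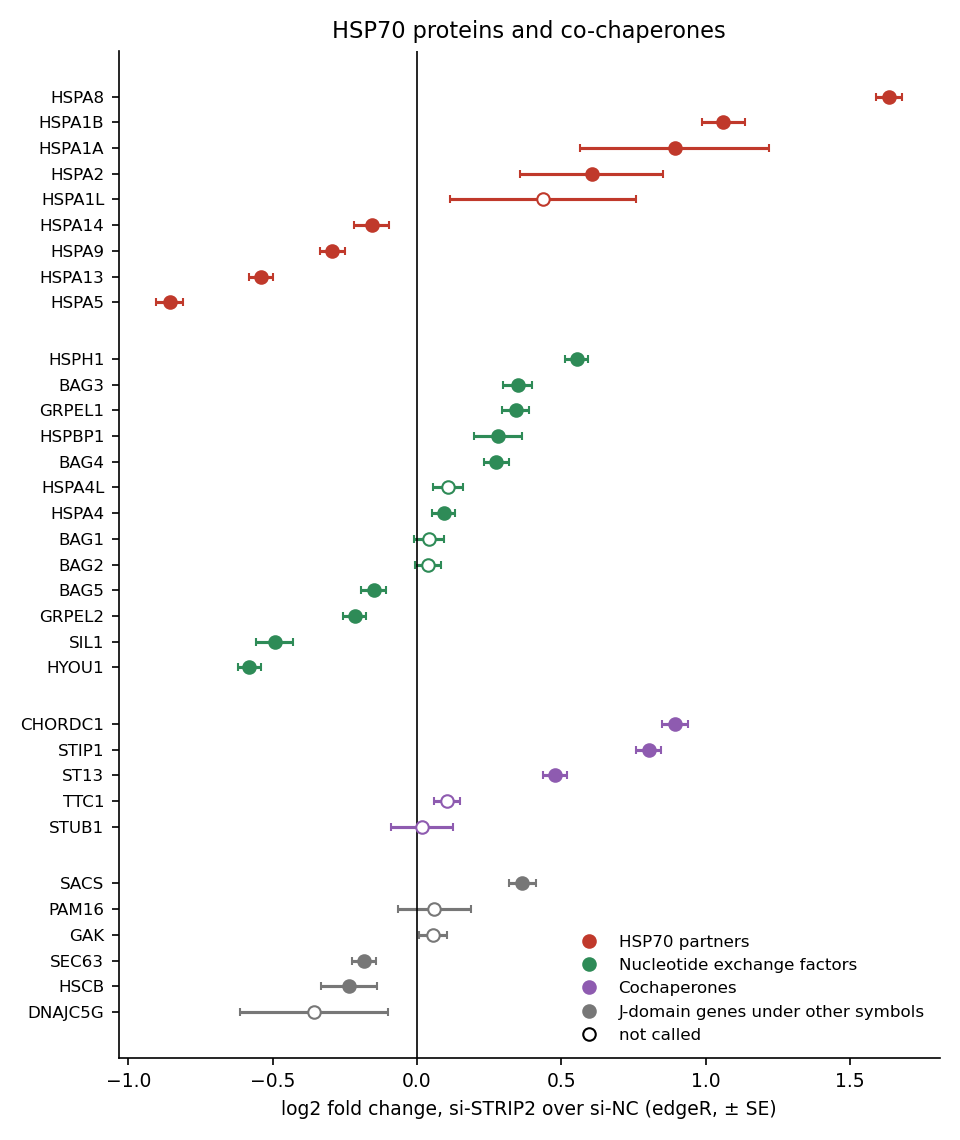
Log2 fold change of si-STRIP2 over si-NC (x axis), with bars of the standard error, for HSP70 genes, nucleotide exchange factors, cochaperones and J-domain genes under other symbols (y axis), with filled points for genes called by edgeR. HSPA8 lies at 1.64 and HSPA5 at -0.86.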

How the data were processed

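The authors deposited 1 table which, per the file headers, holds raw counts and FPKM values per gene and library, with exonic sizes and coordinates. The deposited FPKM values differed by at most 0.005 from those recomputed from count, size and column total. The submitters' processing notes name bcl2fastq 2.20.0.422, FastQC 0.10.1, cutadapt 1.9.1, HISAT2 2.2.1, HTSeq 0.6.1 and GRCh38.p13. The libraries were directional and poly(A) selected, per the labels' protocols, and the strand setting and annotation release used in counting are not given in the sources used here.

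Counts were tested with edgeR 4.0.16 in R 4.3.3: filterByExpr (minimum count 10) kept 15687 genes with 99.8% of counts, libraries were scaled by TMM (factors 0.990 to 1.01), and a quasi-likelihood model with group as its only term gave 2-sided p-values, adjusted by Benjamini-Hochberg over all genes tested. A gene was called at an adjusted p under 0.05. The script was tested on simulated data. Means ± SD are of the deposited FPKM. DESeq2 1.42.0 and limma 3.58.1 (log2 of FPKM plus 1 or 0.1) were alternatives.

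The members, the lists and the rule for named genes were chosen with earlier results of these data known. The rule gives full values for called members with at least a 1.5-fold change, the 2 most abundant of each subfamily and the largest called change in each direction in each subfamily, and names at most 3 genes per partner list among those with at least a 1.5-fold change. Where a partner gene outside this rule is named, the text says that its value was known first. Promoter windows (RefSeq, GRCh38.p14) hold 250 bases before and 50 after each start. Only the bases before the start were searched, and the search was chosen after seeing the data. No protein sequence was used here. The correlations of same-numbered deviations (-0.086, -0.013 and -0.072) gave no sign of pairing by replicate number, which 3 libraries per group cannot exclude.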

Additional observations from a re-analysis of the deposited data

How the results depend on the processing

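Under 14 alternatives (scaling, test, pseudocount, filter, replicate block, and leaving out each library), 20 of the 27 called J-domain genes kept their call in all, 7 (DNAJB4, DNAJC4, DNAJC5, DNAJC9, DNAJC14, DNAJC17 and DNAJC24) lost it in at least 1, and 0 changed direction. DNAJC16 was called with upper-quartile scaling (adjusted p = 0.0463) and with a filter of 1 FPKM (0.0206). Requiring 1.5-fold in addition left 4 called members, with 1 in DNAJB and 1 in DNAJC. With limma on log2(FPKM + 1), which shrinks low genes, the median log2 fold change was 0.34 for DNAJA and -0.10 for DNAJC. Leaving out 1 library in turn gave 22 to 27 called members and 7690 to 8494 calls over all genes, and medians from -0.18 to -0.13 for DNAJB and from -0.15 to -0.094 for DNAJC. The log2 fold changes of 4 uncalled genes crossed 0 in these fits, with DNAJA3 between -0.047 and 0.0018, DNAJC6 between -0.0042 and 0.089, DNAJC28 between -0.42 and 0.058 and DNAJC30 between -0.25 and 0.0064; the cause was not tested.

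The replicate block gave 27 called members and 8293 calls over all genes, and 0 of 6 libraries correlated best with the library of their own number. DNAJC17, with about 2 FPKM, lost its call in 8 alternatives (adjusted p from 0.0537 to 0.183). The 4 untested DNAJB genes had too few counts to pass the filter, and whether depth or low expression lay behind this was not tested. With no filter on low counts, 12 DNAJB genes were tested and 6 were called, beside 8365 of all 32799 genes tested in that fit.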
